A study of Mus musculus with 9 samples.

Results

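The 55 genes described here encode the machinery that copies DNA in S phase of the cell cycle, and were chosen by name from 55471 gene identifiers counted in mouse CD8+ T cells. They were followed in 2 groups of OT-I cells, T cells with a transgenic receptor for an ovalbumin peptide. Control cells (n = 4) had wild-type Bdh1 and carried a short hairpin RNA against firefly luciferase (Bdh1-WT;shCtrl). The group labelled DKO (n = 5) was a Bdh1 knockout carrying a hairpin against Oxct1 (Bdh1-KO;shOxct1). Both targeted genes encode enzymes that take part in the burning of ketone bodies. Cells of both groups were activated in culture with antibodies to CD3 and CD28 and with IL-2, transduced, sorted for the Ametrine reporter and given to C57BL/6 (CD45.1) mice, for which the labels name no depletion of their own cells. Listeria monocytogenes making ovalbumin (LmOVA) was injected 1 day later. At day 7 the CD45.2 and Ametrine+ cells were sorted from the spleen. Neither the age of the animals nor whether replicates came from separate donors is given in the sources used here, so p-values measure the spread between these samples.

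A replication origin is first licensed: the origin recognition complex (ORC), Cdc6 and Cdt1 load the ring-shaped MCM helicase onto DNA, and geminin (Gmnn) holds Cdt1 in check. Kinases and Cdc45, GINS and Mcm10 then turn the helicase on, and polymerases held by the sliding clamp Pcna copy the strands while ribonucleotide reductase and its neighbours supply nucleotides. Effector CD8+ T cells divide quickly after infection and slow down around the peak of the response, and many of these genes are textbook targets of the E2F transcription factors.

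The libraries held 45205993 to 59853080 counts in genes. Both targeted genes were low in every DKO library. Oxct1 was at 59.2 to 71.5 CPM (depth-normalised counts, scaled by TMM) in control and 4.61 to 5.51 CPM in DKO, and Bdh1 at 25.1 to 35.1 and 8.98 to 11.6 CPM. The 7 CD8 T cell markers were all above 1 CPM, while Pax5 of B cells had no count in any library and Cd4 averaged 0.172 CPM in control and 0.344 CPM in DKO. On the principal components of all tested genes, control replicate 1 lay at -79.1 on the first, where the others ranged from -7.25 to 23.5. Control replicate 3 had a value of -70.2 on the second, against -5.59 to 20.2 elsewhere. Results are therefore also given without these libraries.

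All 55 genes passed the filter on low counts. Of these, 11 were higher in DKO and none was lower at an adjusted p of 0.05 (edgeR's quasi-likelihood test, Benjamini-Hochberg adjustment over all 14918 genes tested). Over all genes tested, 2.83% were called, 1.32% higher and 1.51% lower. DESeq2 called 17 and limma-voom 16 of the 55 higher, none lower, with all 11 among them. These tools also called more of all genes. DESeq2 called 512 higher (7.10% called in either direction) and limma-voom 461 (6.68%). At an unadjusted p under 0.05, 30 of the 55 were higher and 0 lower, where 7.74% of all genes were higher. The 11 were Cdc6, Cdt1, Mcm5, Mcm10, Cdc45, Lig1, Rrm1, Rrm2, Timeless, Clspn and Uhrf1. The median log2 fold change of the 55 was 0.28, beside -0.01 for all genes tested, and 48 of the 55 values were positive, as were 48.6% of all genes. For 20 of the 55 the groups shared no range of CPM, and all 20 were higher in DKO, where 4.62% of all genes were and 8.71% did not overlap in either direction.

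**Figure D1:**
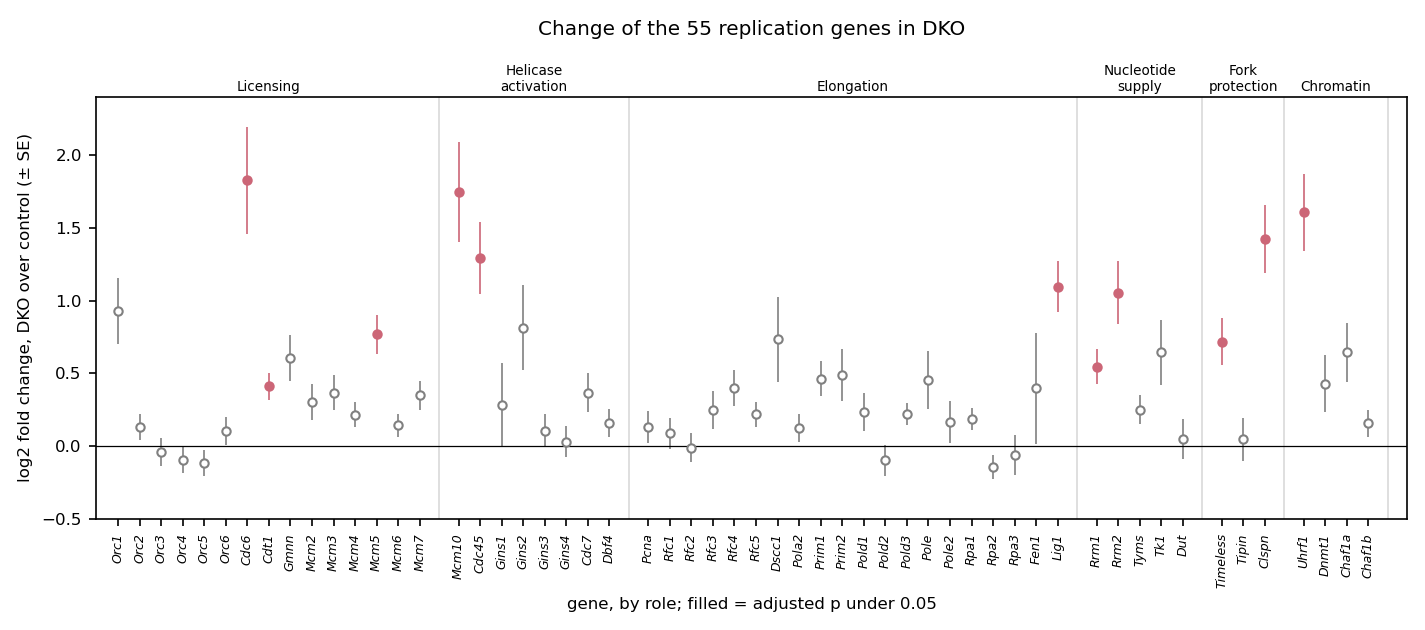
Log2 fold change of DKO over control (y axis, with its SE as bars) for each of the 55 genes (x axis, grouped by role), from 4 control and 5 DKO libraries. The 11 filled points passed an adjusted p of 0.05, and they span every role group, from 0.41 for Cdt1 to 1.83 for Cdc6.

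Without control replicate 1 the number called higher was 13 (2.12% of all genes), and without control replicate 3 it was 7 (0.928%). Without both it was 6, where 163 of all genes were called higher and 3.08% were called in either direction. Leaving out control replicate 4 gave 4 (0.528%), leaving out DKO replicate 1 gave 5 (0.564%), DKO replicate 3 gave 6 (0.555%) and DKO replicate 5 gave 8 (0.67%). The number was 9 with control replicate 2 left out (0.962%), and 8 with DKO replicate 2 (0.938%) or DKO replicate 4 (0.667%) left out. Mcm5, Lig1, Clspn and Uhrf1 stayed past the threshold whichever single library was left out, and the other 7 did not. In bulk RNA, a larger share of cells in S phase and more of these RNAs per cell in DKO cannot be told apart.

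The promoters were searched for E2F sites, a choice made after the values were seen. RefSeq promoters (GRCm38.p6, from 250 bases before to 50 bases after the start) were found for 45 of the 55 genes. The words TTTCCCGC, TTTCGCGC, TTTGCCGC and TTTGGCGC, on either strand, were found in 17 of the 45 (37.8%), against 2.6% of the 27025 genes with a promoter. They were in 6 of the 11 genes called higher (54.5%) and in 11 of the other 34 (32.4%). Those 6 were Cdc6, Cdt1, Mcm5, Lig1, Clspn and Uhrf1, and Orc1 and Mcm6 are shown beside them as genes that edgeR did not call. DESeq2 and limma-voom called Orc1 higher. Promoters were not matched for base composition. In a list of 20 mitotic genes, 17 had a promoter and 1 of them (5.88%) held such a word, while 15 (88.2%) held CCAAT, the core of NF-Y sites, on either strand. CCAAT was in 57.8% of the 45 genes and in 41.1% of all genes. A match is a description of the letters only. The 30-base stretches below show the words, in capitals, as they read on the gene's own strand from 5′ to 3′.
Cdc6, chr11:98908002-98908031, plus strand: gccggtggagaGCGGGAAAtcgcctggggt
Cdt1, chr8:122568035-122568064, plus strand: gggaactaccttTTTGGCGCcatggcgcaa
Mcm5, chr8:75109345-75109374, plus strand: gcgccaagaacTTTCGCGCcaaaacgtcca
Lig1, chr7:13278841-13278870, plus strand: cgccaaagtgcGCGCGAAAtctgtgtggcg
Clspn, chr4:126556990-126557019, plus strand: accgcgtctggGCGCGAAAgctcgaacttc
Uhrf1, chr17:56304117-56304146, plus strand: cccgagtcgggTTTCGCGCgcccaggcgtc
Orc1, chr4:108579416-108579445, plus strand: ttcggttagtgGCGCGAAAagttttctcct
Mcm6, chr1:128359797-128359826, minus strand: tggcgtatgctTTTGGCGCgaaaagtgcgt
Positions are counted from the RefSeq start, which can differ from the GENCODE coordinates given for a gene. In Mcm5 the word begins 153 bases before the RefSeq start and runs into a second one on the other strand. In Clspn the word begins 22 bases after the RefSeq start, and in Orc1 27 bases before it. Mcm6, whose promoter held 3 such words, was not called higher.

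Among the 15 licensing genes, edgeR called 3 higher, the loaders Cdc6 and Cdt1 and the helicase subunit Mcm5, and none lower. DESeq2 and limma-voom each called 6 higher, these and Orc1, Gmnn and Mcm7, and none lower. The median log2 fold change was 0.30. Cdc6 (chromosome 11, 98907801 to 98923940 in GRCm38), the ATPase that brings the helicase to ORC, was at 2.56, 3.17, 3.05 and 1.41 CPM in control replicates 1 to 4. In DKO replicates 1 to 5 it was at 8.23, 5.27, 7.59, 6.37 and 17.7 CPM. Every DKO library lay above every control library, and DKO replicate 5 lay far above the rest. The log2 fold change of 1.83 (SE 0.37, adjusted p 0.0258) was the largest of the 55. It lost the threshold without control replicate 4, DKO replicate 1 or DKO replicate 3 (adjusted p up to 0.0745).

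Cdt1 (chromosome 8, 122568015 to 122573554), the partner of Cdc6 in loading, was far more abundant. It was at 62.6, 68.8, 66.8 and 75.7 CPM in control and at 96.8, 84.9, 95.2, 80.3 and 97.6 CPM in DKO. The groups did not overlap, but the change was small, 0.41 on the log2 scale (SE 0.09, adjusted p 0.0369), and it held in 2 of the 9 fits that left out a library, those without control replicate 1 and without DKO replicate 4 (adjusted p up to 0.109 in the rest). Gmnn, the inhibitor of Cdt1, averaged 13.0 ± 2.43 CPM (SD) in control and 19.8 ± 3.65 CPM in DKO. Its value of 0.61 missed the threshold in edgeR (adjusted p 0.0751). Gmnn was called higher by DESeq2, by limma-voom, and by edgeR without control replicate 1 or without control replicates 1 and 3 together. The highest control library, replicate 1 at 16.6 CPM, lay above the lowest DKO library at 16.3 CPM. The ratio of Cdt1 to Gmnn gave a difference of -0.20 on the log2 scale (exact permutation test, two-sided, p = 0.365).

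None of the 6 ORC genes was called by edgeR, and their median log2 fold change was 0.03. With no adjustment 1 had a p under 0.05, Orc1, which DESeq2 and limma-voom called higher. Orc1, the largest ORC subunit and the one that cells resupply in each cycle, was at 0.774 to 1.56 CPM in control and 2.02 to 2.79 CPM in DKO, with no overlap (log2 fold change 0.93, SE 0.23, adjusted p 0.0549). Orc3, Orc4 and Orc5 had negative values, from -0.12 to -0.04, and none of them passed the test. Orc1 shares 10.8% of its exon bases with genes annotated on top of it. With the counts of both strands summed, which keeps the shared reads, its value was 0.74 (adjusted p 0.0992).

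The MCM2-7 ring is built from 1 copy of each of 6 subunits, and the RNAs of all 6 had positive log2 fold changes. Mcm5 (chromosome 8, 75109569 to 75128439) was at 54.3, 60.9, 69.1 and 58.4 CPM in control and at 105, 82.3, 101, 95.3 and 133 CPM in DKO. The highest control library was below the lowest DKO library, and the log2 fold change was 0.77 (SE 0.13, adjusted p 0.0125). The other 5 had log2 fold changes from 0.14 (Mcm6) to 0.37 (Mcm3), and none passed the threshold in edgeR (adjusted p 0.0932 to 0.406). Mcm7 passed in DESeq2 (adjusted p 0.0184) and in limma-voom (adjusted p 0.0409). Mcm3, Mcm4 and Mcm7 nevertheless did not overlap between the groups. Mcm4 was at 151 to 193 CPM in control and 193 to 223 CPM in DKO, and Mcm7 at 69.5 to 79.0 and 82.1 to 109 CPM.

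**Figure D2:**
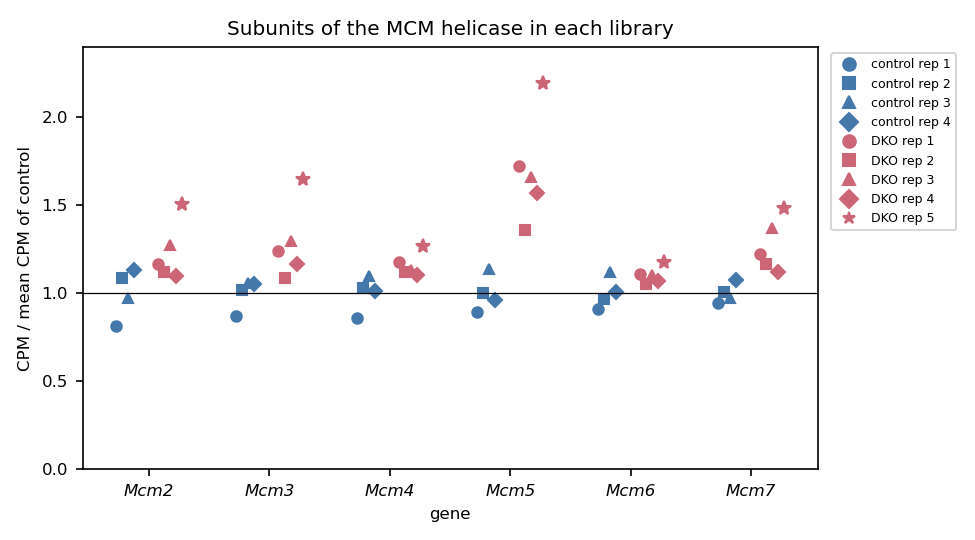
CPM of each MCM subunit gene in each library, divided by the mean of the 4 control libraries (y axis, linear from 0), with blue points for control and red for DKO. Mcm5 in DKO averaged 1.7 times its control level, and Mcm6 1.1 times.

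The most abundant subunit per kb of exon was Mcm6, at 76.8 CPM per kb in control and 84.7 CPM per kb in DKO, while Mcm5 was at 15.2 and 25.8 CPM per kb. The ratio of Mcm5 to Mcm6 CPM was 0.167, 0.175, 0.172 and 0.162 in control. In DKO it was 0.263, 0.218, 0.254, 0.248 and 0.316. The groups did not overlap for the ratio of Mcm5 to Mcm2, Mcm3, Mcm4 or Mcm6, and they did for Mcm7. The log2 difference was 0.61 against Mcm6 and 0.40 against Mcm3. Each of the 4 ratios reached the smallest p that 4 against 5 libraries allow, 0.0159 (exact permutation test, two-sided). Their adjusted p over 24 pairs of genes was 0.0762, which does not pass 0.05. With so few libraries, passing needed many pairs at or near the smallest p, so the adjusted p could not decide whether these ratios differed.

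All 8 helicase activation genes had positive log2 fold changes, with a median of 0.32, and edgeR called 2 of them higher and none lower. Without control replicates 1 and 3 together none of the 8 was called by edgeR, and 3 had an unadjusted p under 0.05. Mcm10 (chromosome 2, 4989714 to 5012791), which helps the helicase start moving, was at 1.67, 2.54, 1.17 and 1.65 CPM in control and at 5.77, 3.39, 4.64, 4.93 and 10.9 CPM in DKO. The groups did not overlap, and DKO replicate 5 was again the highest. The log2 fold change was 1.75 (SE 0.34, adjusted p 0.0232), lost without control replicate 3, control replicate 4 or DKO replicate 1 (adjusted p up to 0.075).

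Cdc45 (chromosome 16, 18780447 to 18811987), which with GINS completes the active helicase, was at 3.24, 6.31, 5.31 and 4.34 CPM in control. In DKO it was at 10.1, 9.03, 9.63, 11.8 and 18.3 CPM. It rose by 1.29 (SE 0.25, adjusted p 0.0212). Of the 9 fits that left out a library, it lost the threshold only in the one without control replicate 4 (adjusted p 0.0703). None of the 4 GINS genes was called by edgeR (1 had an unadjusted p under 0.05), DESeq2 or limma-voom. Gins4, the most abundant activation gene per kb, was at 54.7 to 78.5 CPM in control and 61.5 to 66.0 CPM in DKO. Cdc7, the kinase that fires origins, did not overlap between groups (21.0 to 33.9 CPM in control, 34.4 to 42.6 CPM in DKO), at a log2 fold change of 0.37 (adjusted p 0.209). Its activator Dbf4 had a value of 0.16 (adjusted p 0.475).

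Polymerase, clamp and other elongation genes had the lowest median log2 fold change of the roles, 0.22. Of the 20 genes, edgeR called 1 higher and none lower, DESeq2 called 3 (Rfc4, Prim1 and Lig1) and limma-voom 2 (Rfc4 and Lig1). The gene called by edgeR was Lig1 (chromosome 7, 13277283 to 13311433), the ligase that seals Okazaki fragments. It was at 16.9, 18.4, 16.7 and 15.7 CPM in control and at 33.9, 27.0, 32.6, 33.7 and 53.6 CPM in DKO. The 4 control libraries lay close together, the lowest DKO library was well above them, and the log2 fold change was 1.10 (SE 0.17, adjusted p 0.00823). It passed the test in all 9 fits that left out a library (adjusted p up to 0.0392).

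Pcna, the sliding clamp and a common marker of proliferating cells, was at 81.2 to 110.3 CPM in control and 92.0 to 117 CPM in DKO, so the groups overlapped. Its value of 0.13 on the log2 scale (SE 0.11) had an adjusted p of 0.607. None of the 5 genes of its loader, Rfc1 to Rfc5, was called by edgeR (2 had an unadjusted p under 0.05), and DESeq2 and limma-voom called Rfc4. Rfc4 was at 11.6 to 14.7 CPM in control and 14.8 to 20.5 CPM in DKO (log2 fold change 0.40, adjusted p 0.124). The catalytic primase gene Prim1 did not overlap either, at 19.3 to 23.8 and 26.1 to 37.2 CPM (log2 fold change 0.46, adjusted p 0.0723 in edgeR).

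Single-strand binding protein genes were among the most abundant of the 55. Rpa2 had the highest level per kb of the elongation genes, 84.1 CPM per kb in control and 76.0 CPM per kb in DKO. Its log2 fold change of -0.15 (SE 0.08, adjusted p 0.421) was the lowest of the 55. Rpa1, the large subunit of the same trimer, had a value of 0.18 (adjusted p 0.249), and Rpa3 one of -0.06 (adjusted p 0.865). Among polymerase genes, Pold3 did not overlap between groups (64.1 to 74.5 CPM in control, 77.8 to 82.1 CPM in DKO, adjusted p 0.188), and Pold2 had a negative value, -0.10 (adjusted p 0.705). Pole, the catalytic subunit of the leading strand polymerase, was at 7.70 to 17.3 CPM in control and 15.8 to 21.3 CPM in DKO (log2 fold change 0.45, adjusted p 0.295), with control replicate 1 the lowest. The remaining polymerase and primase genes Pold1, Pola2, Pole2 and Prim2 had log2 fold changes from 0.12 to 0.49, and edgeR called none of them over all 9 libraries. Without control replicate 1 it called Prim2 higher.

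Fen1, the nuclease that trims Okazaki fragments, shows a limit of the counting. Of its exon bases, 84.2% are shared with other annotated genes, and reads there are dropped from unstranded counts. It was left at 0.354 to 1.02 CPM over the 9 libraries. With the counts of both strands summed, its total was 92.2 times larger, with means of 49.2 ± 6.79 CPM (SD) for control and 47.8 ± 4.74 CPM for DKO, and the log2 fold change was -0.04 (SE 0.11, adjusted p 0.904) in place of 0.40. The sum may hold reads of the overlapping genes. Gins2 (10.3 times larger) and Chaf1a (7.33 times) were affected in the same way, and their values went from 0.81 to 0.27 and from 0.64 to 0.12. For the 11 genes called higher the 2 countings differed by at most 1.012 times.

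All 5 nucleotide supply genes had positive log2 fold changes, and edgeR called 2 of them higher. Both encode subunits of ribonucleotide reductase, the enzyme that makes deoxyribonucleotides. Rrm2 (chromosome 12, 24708241 to 24714146), its small and cell cycle regulated subunit, was at 57.2, 60.1, 44.6 and 50.4 CPM in control. In DKO it was at 94.4, 75.2, 99.0, 103 and 179 CPM. All DKO libraries were above control, and the log2 fold change was 1.05 (SE 0.22, adjusted p 0.0278), kept in 4 of the 9 fits that left out a library. The fits that lost it left out control replicate 3, control replicate 4, DKO replicate 1, DKO replicate 3 and DKO replicate 4 (adjusted p up to 0.0857). Rrm1 (chromosome 7, 102441695 to 102469771), the large subunit, was at 62.2, 83.8, 67.7 and 82.7 CPM in control and at 96.8, 106, 103, 103 and 132 CPM in DKO. It rose by 0.54 (SE 0.12, adjusted p 0.0357), kept in 2 of the 9 fits, those without control replicate 1 and without control replicate 2 (adjusted p up to 0.079 in the rest). With control replicate 3 left out, no nucleotide supply gene was called by edgeR, and 4 of the 5 had an unadjusted p under 0.05. The ratio of Rrm2 to Rrm1 differed by 0.45 on the log2 scale (exact permutation test, two-sided, p = 0.0476, adjusted p 0.104 over 24 pairs).

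Tk1, the salvage thymidine kinase, was at 6.25 to 9.11 CPM in control and 8.30 to 19.0 CPM in DKO (log2 fold change 0.64, adjusted p 0.172). Tyms, which makes thymidylate, had a value of 0.25 (adjusted p 0.256 in edgeR) and was called higher by limma-voom, and Dut, which clears dUTP, one of 0.05 (adjusted p 0.897). Of 18 further nucleotide synthesis genes, among them Cad, Gart and Impdh2, none was called by edgeR, DESeq2 or limma-voom, and 2 had an unadjusted p under 0.05, 1 with a positive and 1 with a negative value. Their median log2 fold change was 0.03, with 10 positive and 8 negative values.

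All 3 fork protection genes had positive log2 fold changes over all libraries, and edgeR called 2 of them higher. Clspn (chromosome 4, 126556935 to 126593903), the adaptor that carries the checkpoint signal at stalled forks, was at 2.00, 1.63, 1.92 and 1.41 CPM in control and at 3.91, 4.05, 4.60, 3.61 and 7.15 CPM in DKO. The groups did not overlap, and the log2 fold change was 1.42 (SE 0.23, adjusted p 0.00949). Timeless (chromosome 10, 128232065 to 128252941) was at 8.30, 10.2, 13.1 and 10.99 CPM in control and at 16.1, 16.0, 19.0, 14.6 and 21.9 CPM in DKO, a rise of 0.72 (SE 0.16, adjusted p 0.0377) that held without control replicate 1 and without control replicate 3 and in none of the other 7 fits (adjusted p up to 0.102). Its obligate partner Tipin was at 40.1 to 63.7 CPM in control and 41.5 to 58.4 CPM in DKO (log2 fold change 0.05, adjusted p 0.911). The sign of the Tipin value turned when control replicates 2 or 3 or DKO replicate 5 were left out. The log2 ratio of Timeless to Tipin differed by 0.66 between the groups (exact permutation test, two-sided, p = 0.0317, adjusted p 0.0952 over 24 pairs), and the ratios overlapped.

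All 4 chromatin genes had positive log2 fold changes, and edgeR called 1 of them higher, Uhrf1. It had the third largest change of the 55. Uhrf1 (chromosome 17, 56303321 to 56323486), which reads half-methylated DNA behind the fork and brings in Dnmt1, was at 6.09, 10.95, 9.51 and 10.6 CPM in control. In DKO it was at 26.7, 19.7, 26.1, 21.9 and 47.2 CPM. The lowest DKO library was above the highest control library, and the log2 fold change was 1.61 (SE 0.26, adjusted p 0.00949). Dnmt1, the maintenance methyltransferase, was at 128, 232, 256 and 269 CPM in control and at 313, 272, 318, 232 and 356 CPM in DKO. Control replicate 1 was low, DKO replicate 4 fell inside the control range, and the value of 0.43 did not pass (adjusted p 0.314). The ratio of Uhrf1 to Dnmt1 was 0.0371 to 0.0475 in control and 0.0725 to 0.133 in DKO, with no overlap and a log2 difference of 1.10 (exact permutation test, two-sided, p = 0.0159, adjusted p 0.0762 over 24 pairs). That p is the smallest these libraries allow, so the adjusted p could not decide here either. Of the histone chaperone CAF-1, Chaf1b had a value of 0.15 (adjusted p 0.471), and Chaf1a, with its incomplete counts, was called higher by DESeq2 alone of the 3 tools.

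**Figure D3:**
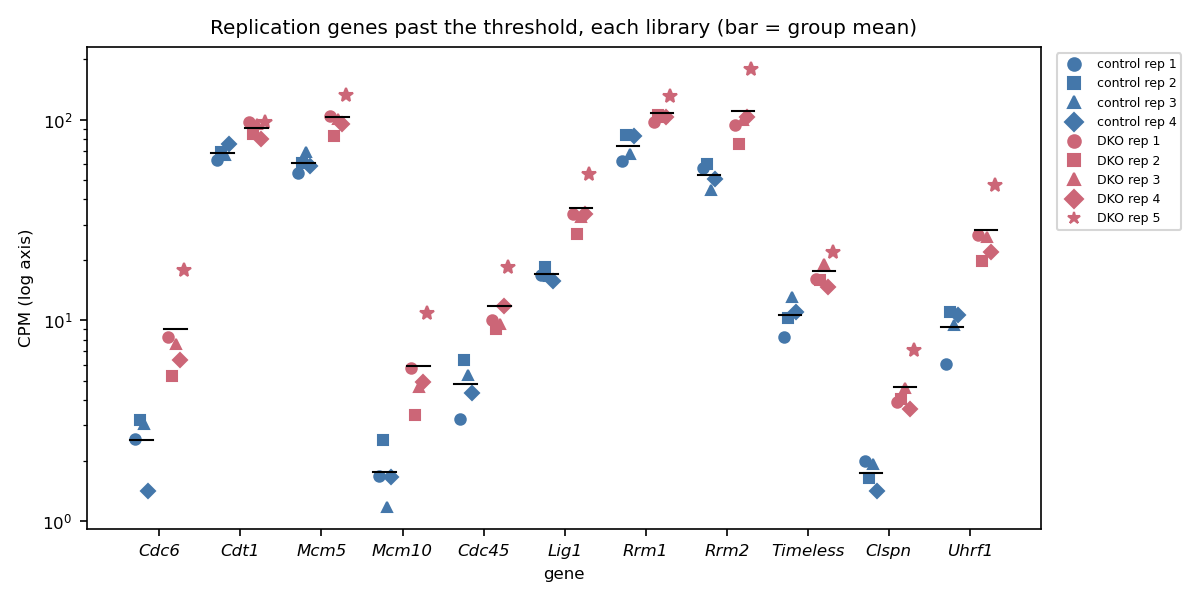
CPM (y axis, log scale) of the 11 genes called higher in DKO (x axis), with 1 point per library, shaped by replicate, and a bar at each group mean. For all 11 genes the red DKO points lie above the blue control points, and DKO replicate 5 (star) is the highest library for each of them.

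Summed levels are given by role as descriptions, with no test between roles. The summed CPM of nucleotide supply genes averaged 212 ± 12.6 (SD) in control and 315 ± 64.7 in DKO, or 1.49 times. For chromatin genes it was 1.37 times, for fork protection 1.19, for helicase activation 1.17, for licensing 1.16 and for elongation 1.09. The sum of all 55 genes went from 3253 ± 86.4 to 3813 ± 313 CPM, or 1.17 times. The sums overlapped between the groups for fork protection, where control replicate 1 was at 74.0 CPM and DKO ranged from 61.6 to 87.4 CPM, and for chromatin, where control replicate 4 was at 341 CPM and DKO replicate 4 at 313 CPM. Summed CPM weights the abundant genes, several of which changed little.

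The ratio of the summed nucleotide supply genes to the elongation genes was 0.155 to 0.174 in control and 0.201 to 0.279 in DKO, so all DKO libraries lay above control. The ratio of licensing to elongation genes was 0.877 to 1.06 in control and 1.03 to 1.05 in DKO. Control replicate 3 was the highest library for that ratio and control replicate 1 the lowest, and the groups overlapped. These ratios are descriptions and were not tested.

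**Figure D4:**
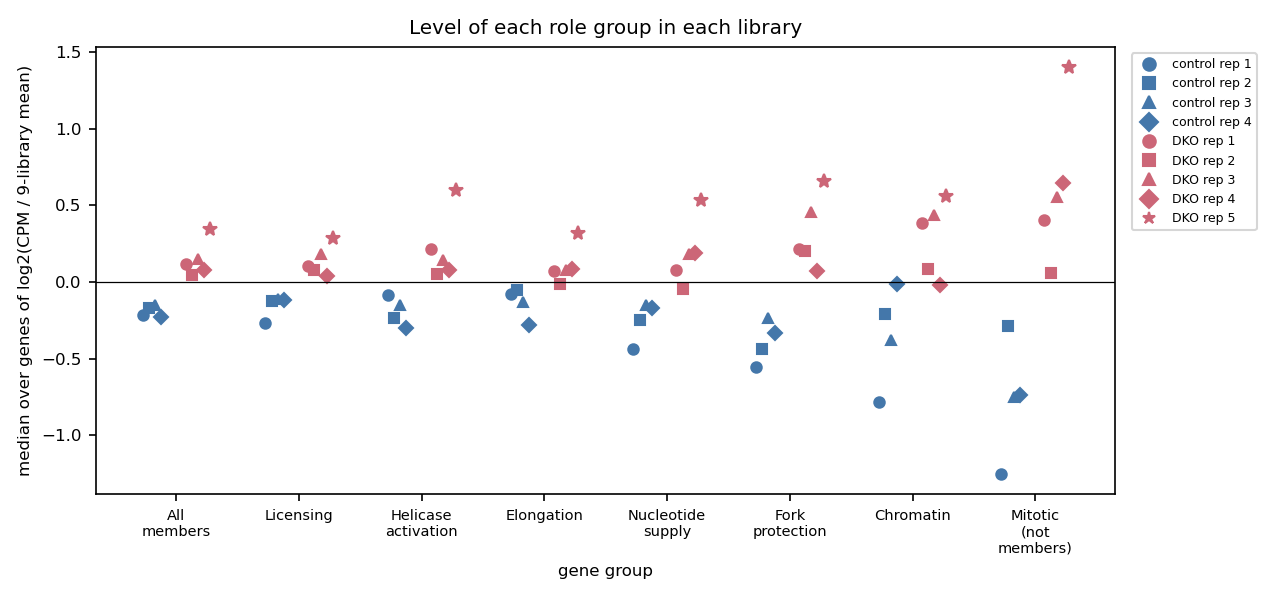
Median over the genes of a group of the log2 ratio of CPM to the gene's mean over the 9 libraries (y axis), for all 55 genes, each role group and 20 mitotic genes (x axis), with 1 point per library. Over all 55 genes the control libraries sit between -0.23 and -0.15 and the DKO libraries between 0.05 and 0.35.

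Single libraries stood out within this pattern. DKO replicate 5 was the highest of the 9 libraries for 39 of the 55 genes, and its median over the 55 was 0.35, against 0.05 to 0.15 in the other DKO libraries. DKO replicate 2 was the lowest DKO library for 25 genes. Without DKO replicate 5, the median log2 fold change of the 55 genes was 0.20, 20 genes did not overlap between groups, and 8 of the 11 stayed called. With a library fewer, groups separate more often by chance, and the share of all genes without overlap was not counted there. Control replicate 1 was the lowest library for 23 genes and the highest for 9.

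Control replicate 1 differed from the other controls by transcript length. Among the 18 shortest of the 55 genes by exon length (1136 to 3506 bases), 15 were higher in it than in the mean of the other controls, with a median log2 difference of 0.25. Among the 19 longest (5229 to 11160 bases), 7 were, with a median of -0.15. Over all tested genes of the same lengths the medians were 0.20 and -0.31. Rpa3, Tipin, Dut and Gins4 were highest in control replicate 1, and Pole and Dnmt1 lowest. In DKO replicate 5 the medians were 0.30 for the short genes and 0.34 for the long ones, against 0.03 and -0.01 over all genes of those lengths. The log2 fold change of DKO over control had a median of 0.15 in the 18 short genes (3 called), 0.36 in the 18 of middle length (3 called) and 0.30 in the 19 long ones (5 called). Without control replicate 1 the median of the 55 genes was 0.23 and 24 did not overlap. Non-overlap is more frequent by chance with fewer libraries, and its share over all genes was not counted for that set.

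The 55 genes were also split into 3 sets by their mean level per kb over the 9 libraries, as a description. In the lowest set (18 genes, 0.237 to 6.28 CPM per kb), the median log2 fold change was 0.68 and 6 genes were called. In the middle set (18 genes, up to 16.4 CPM per kb) it was 0.19 with 2 called, Lig1 and Rrm1, and in the highest set (19 genes, up to 81.2 CPM per kb) 0.14 with 3 called, Cdt1, Mcm5 and Rrm2. All tested genes in the same ranges had medians of -0.04, 0.02 and 0.02, with 1.84%, 1.24% and 0.902% called higher. The lowest set holds Fen1, Gins2, Chaf1a and Orc1, whose unstranded counts are incomplete, and without these 4 its median was 0.68. The difference between the sets was not tested.

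**Figure D5:**
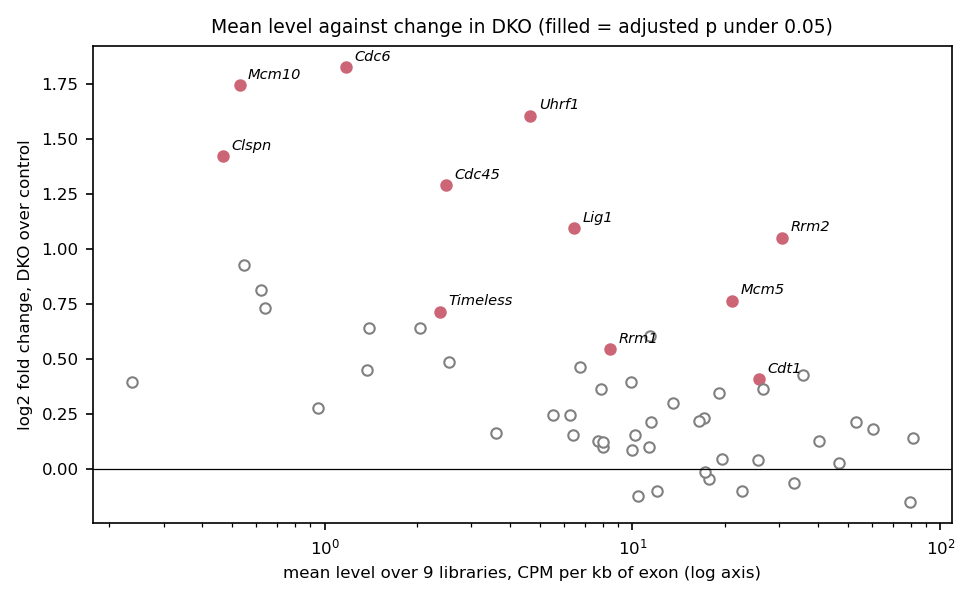
Mean level over the 9 libraries in CPM per kb of exon (x axis, log scale) against log2 fold change of DKO over control (y axis) for the 55 genes, with the 11 called genes filled and named. Values above 1 on the y axis occur from Clspn at 0.468 to Rrm2 at 30.6 CPM per kb, and the 3 most abundant genes, Mcm6, Rpa2 and Rpa1, lie between -0.15 and 0.18.

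Other genes of the replication machinery, from a list of 28 that are not among the 55, were also counted. Of these, edgeR called 5 higher and none lower, DESeq2 called 9 and limma-voom 8 higher and none lower, and the median log2 fold change was 0.21. They were Mcm8 (1.59 ± 0.566 to 3.45 ± 0.656 CPM, adjusted p 0.0357), a helicase relative used in repair, and Chtf18 (5.52 ± 0.298 to 12.3 ± 3.81 CPM, adjusted p 0.0135), of the alternative clamp loader. The others were the nuclease gene Exo1 (adjusted p 0.0357), the histone chaperone gene Asf1b (23.9 ± 2.32 to 47.7 ± 14.0 CPM, adjusted p 0.0148) and Cdca7 (adjusted p 0.0407). Dscc1, which pairs with Chtf18 in that loader and is among the 55, was at 2.06 ± 0.858 and 3.44 ± 0.833 CPM (adjusted p 0.248). Without control replicate 1 the number called higher was 7 of 28 (2.12% of all genes), and without control replicate 3 it was 2 (0.928%). Without control replicates 1 and 3 together it was 2, and without DKO replicate 5 it was 2 (0.67%).

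Upstream regulators of S phase entry gave 3 genes called by edgeR of 20 tested, all higher, where DESeq2 called 7 and limma-voom 5. They were the cyclin D genes Ccnd2 (390.1 ± 43.3 to 509.6 ± 29.4 CPM, adjusted p 0.0407) and Ccnd3 (613 ± 28.9 to 914 ± 62.6 CPM, adjusted p 0.00289), and Cdkn2c (27.0 ± 2.43 to 40.8 ± 4.80 CPM, adjusted p 0.0154), an inhibitor of their kinases. Ccnd2 was not called without DKO replicate 5 or without control replicate 3. Without control replicate 1, Rb1 was called lower and Cdk4 higher. None of the 6 measured E2F genes was called by edgeR over all 9 libraries, where 5 had an unadjusted p under 0.05. With control replicate 3 left out, edgeR called E2f7 higher. DESeq2 called E2f7 and E2f8, and limma-voom E2f7, all higher. E2f7 and E2f8, which repress E2F targets late in S phase, had the largest values, 1.66 (adjusted p 0.0898) and 1.33 (adjusted p 0.158), and E2f1 was at 5.30 ± 2.24 and 8.55 ± 3.19 CPM.

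Most mitotic genes rose. Of the 20 on the list, edgeR called 17 higher, DESeq2 called 20 and limma-voom 13, and none was called lower. The 20 had a median log2 fold change of 1.39, and their summed CPM went from 238 ± 62.4 to 591 ± 211, or 2.48 times. Leaving out control replicate 1 gave 16 called higher, control replicate 3 gave 10, both gave 3 and DKO replicate 5 gave 13, and all 20 kept an unadjusted p under 0.05 in each of these fits. The ratio of that sum to the sum of the 55 replication genes was 0.0533, 0.0977, 0.0705 and 0.0707 in control and 0.132, 0.11, 0.145, 0.158 and 0.218 in DKO, without overlap. The summed mitotic genes were highest in DKO replicate 5 and lowest in control replicate 1, as were Cdt1, Mcm5, Cdc45, Rrm1, Timeless and Uhrf1. The other called replication genes were also highest in DKO replicate 5. Of these, Cdc6, Lig1 and Clspn were lowest in control replicate 4, and Mcm10 and Rrm2 in control replicate 3.

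Markers of other cell types also differed between the groups. The 12 myeloid markers summed to 249 to 289 CPM in control and 200.05 to 215 CPM in DKO. Nearly all of it was Ctss, Cst3, Itgam and Cd68, and 2 of them, Ctss and Cd68, were called lower. Lyz2 went the other way, at 2.43 ± 1.08 CPM (SD) in control and 5.85 ± 4.39 CPM in DKO, and was not called. Csf1r averaged 1.84 CPM in control and 2.37 CPM in DKO, also not called. Clec9a and Siglech were at 0 in control and at or below 0.0435 CPM on average in DKO. The 4 NK cell markers summed to 306 to 319 and 199 to 245 CPM, with Klre1 and Eomes called lower, of which effector CD8+ T cells also express Eomes, and Ncr1 was near 0 in both groups (0.0707 and 0.0618 CPM). The 8 B cell markers summed to 186 to 270.04 CPM in control and 195 to 215 CPM in DKO, nearly all of it Ighm, and none was called. The 9 erythroid and platelet markers summed to 7.21 to 36.7 and 10.5 to 36.3 CPM, and the 4 CD4 T cell markers to 30.7 to 39.3 and 34.6 to 46.6 CPM, with none called. Of the 7 CD8 T cell markers, which summed to 6857 to 9384 CPM in control and 6265 to 6821 CPM in DKO, Cd8b1 was called lower. The part of these cells in the higher replication genes was not tested.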

How the data were processed

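Per the labels' protocols, a Qiagen RNeasy kit gave the RNA, and libraries combined Takara Smartseq v4 with Nextera Flex. Deposited values were raw counts of reads for each gene, in STAR's layout. Trim Galore 0.6.0, STAR 2.7.8a and mm10 are named in the submitters' processing notes. The unstranded column was used, which leaves out reads shared by overlapping genes. Lines naming no gene were left out (unmapped reads were 10.3 to 16.7% of a library). No replicates were duplicates (chi-square per degree of freedom at least 8.96). Of the identifiers, 55230 were found in GENCODE M21 (GRCm38), whose coordinates and exon lengths are given, and 1 gene of the further lists matched 2 identifiers and was left out.

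The test was that of edgeR 4.0.16, run in R 4.3.3 (robust quasi-likelihood, TMM factors 0.987 to 1.035, filterByExpr with a minimum count of 10 and total of 15). Alternatives were DESeq2 1.42.0, its size factors, limma 3.58.1 (voom), 1 surrogate variable (sva 3.50.0), no or a stricter filter (1 CPM in 4 libraries), summed strand columns, a replicate block, and leaving out libraries. Ratios of 24 gene pairs, chosen after the values were seen, were compared by exact permutation tests (scipy 1.17.1). The smallest p of these tests was 0.0159, so an adjusted p under 0.05 over the 24 pairs needed many pairs at or near that value. Simulated data held 14918 genes with 200 changed. On these, the DKO against control test of edgeR recovered 37.3% of 1.5-fold, 65.7% of 2-fold and 86.4% of 4-fold changes. Of the calls, 6.67% were false with edgeR, 20.1% with DESeq2 and 5.97% with limma-voom.

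The 55 genes and all lists were chosen with earlier results of these data known. Named genes were every member called, the most abundant per kb and the most changed of each role, Mcm2 to Mcm7 and both targets. Others were named after their values were seen. Splits by length, level and library were also chosen then. Replicate numbers were not used as pairs in the main test. The correlations of same-numbered libraries, given below, cannot show whether the numbers pair the samples.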

Additional observations from a re-analysis of the deposited data

Results flagged for a closer look

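Of 58 sets of values checked (the CPM of each named gene and the summed CPM of each role group and of all 55, in each group of libraries), 10 held a library separated from the others of its group by more than Dixon's 95% critical value. Chance gives about 1 in 20. Of these, 7 were DKO replicate 5 as the highest library. It was at 17.7 CPM for Cdc6 (others 5.27 to 8.23), 53.6 for Lig1 (27.0 to 33.9), 132 for Rrm1 (96.8 to 106), 179 for Rrm2 (75.2 to 103), 7.15 for Clspn (3.61 to 4.60) and 47.2 for Uhrf1 (19.7 to 26.7). Its summed nucleotide supply genes reached 427 CPM (265 to 305). Control replicate 1 was the highest control at 63.7 CPM for Tipin (40.1 to 42.5) and at 74.0 CPM for the summed fork protection genes (53.1 to 55.1). Control replicate 4 was the lowest control for the summed helicase activation genes, at 160.3 CPM (177 to 179.7).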

How the results depend on the processing

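The number of the 55 genes past the threshold was 11 and became 17 with DESeq2, 16 with limma-voom, 16 with 1 surrogate variable and 6 without control replicates 1 and 3 (5 of them among the 11), all higher. It ranged from 4 to 13 when single libraries were left out, and the number higher had the same range. Over all genes 422 passed, 1059 with DESeq2, 996 with limma-voom, 732 with 1 surrogate variable, and 179 to 749 when single libraries were left out. With the replicate block, on the 8 libraries whose numbers occur in both groups, 2 of the 55 (Lig1 and Uhrf1) and 63 of all genes passed. The deviations of same-numbered libraries correlated at -0.117 to 0.0124, and no control library correlated best with the DKO library of its own number. Other alternatives gave 10 to 12 of the 55. The median log2 fold change of the genes stayed between 0.20 and 0.33, and 17 to 28 did not overlap. That range includes fits on fewer libraries, where non-overlap is more frequent by chance. Oxct1 and Bdh1 stayed past the threshold throughout. Tipin (0.05) turned to -0.0091 with the replicate block, to -0.0098 without control replicate 2, to -0.02 without control replicate 3 and to -0.0335 without DKO replicate 5, and ranged up to 0.215 without control replicate 1. Gins4 (0.03) turned to -0.0269 without control replicate 3 and to -0.01 without control replicate 4, and ranged up to 0.148 without control replicate 1. Neither was called, and the cause was not tested. The lowest count behind a called gene was 53, for Mcm10 in control replicate 3.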
